A study of Rattus norvegicus with 6 samples.

Results

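The genes described here are 53 genes of S phase and mitosis, from the licensing of replication origins to the separation of chromosomes. They were chosen by name from the deposited count table, which lists 37203 genes, and all 53 had a row in it. The table holds RNA sequencing counts of alveolar tissue of the rat, from the bone that holds the teeth. By their titles, 3 libraries are case (numbers 5, 6 and 9) and 3 are control (numbers 5, 6 and 10). In all of them a tooth had been moved. The source field reads without corticision for the case libraries and with corticision for the control libraries, corticision being a surgical cut into the cortical bone that is used to hasten tooth movement. The usual sense of the titles is the reverse of this, and the labels do not settle it. Groups are therefore called by their titles, with differences taken as case minus control. Strain, age, sex, force and time after surgery are not given in the labels, nor do they tie libraries to animals. The p-values thus rest on a spread between libraries that could be technical.

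Library totals ran from 10886303 to 14433740 counts. Levels are in CPM, counts scaled to library sizes adjusted by edgeR's trimmed mean of M-values (TMM). All 10 genes of an osteoblast list were detected, with a summed level of 48530 to 90260 CPM. Case 5 and control 5 carried markers of tooth-forming cells (459.6 and 89.8 CPM summed over 8 genes, against 0.640 to 7.79 in the others), and control 5 also carried keratins and other oral epithelium genes (3615 CPM over 11 genes, against 26.1 to 59.2). The part of these cells in the values below was not tested.

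As background, a cell that commits to divide first activates E2F transcription factors, which turn on the genes of DNA replication. In G1 the proteins Cdc6 and Cdt1 load the Mcm2 to Mcm7 helicase onto origins, and geminin (Gmnn) later blocks a second loading. After replication, Cdk1 with cyclins A and B drives entry into mitosis, where Foxm1 and Mybl2 with the MuvB complex activate a later wave of genes, and the checkpoint kinases hold back the anaphase activator Cdc20 until every chromosome is attached. In alveolar bone and its marrow, dividing cells include blood precursors, bone and ligament progenitors and epithelium. In bulk tissue, fewer dividing cells and less RNA per dividing cell cannot be told apart.

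Some promoters of these genes held sequence words of the first or of the later wave, and others held none. The windows came from RefSeq (rat assembly GRCr8, 250 bases before to 50 after the annotated start); since the build behind the counts is not given in the sources used here, no coordinates are printed. Windows were found for 44 of the 53 genes, 24 of S phase and 20 of G2 and mitosis. An E2F match was counted as TTTCGCGC, TTTGGCGC or TTTCCCGC, a CHR match (cell cycle genes homology region, the site of MuvB) as TTTGAA and a CCAAT box as CCAAT, each on either strand. E2F words can overlap one another, and CHR can overlap a CCAAT box. E2F words stood in 13 of the 24 S phase windows (54.2%) and in 1 of the 20 mitosis windows (5.0%), against 3.14% of the 10035 windows of all tested protein-coding genes. The CHR word stood in 1 S phase window (4.17%) and in 13 mitosis windows (65.0%), against 11.8% of all tested genes, and CHR together with a CCAAT box in 0 and in 12 (60.0%), against 4.94%. A match describes letters in a window and is not a binding site measured here.

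**Figure D1:**
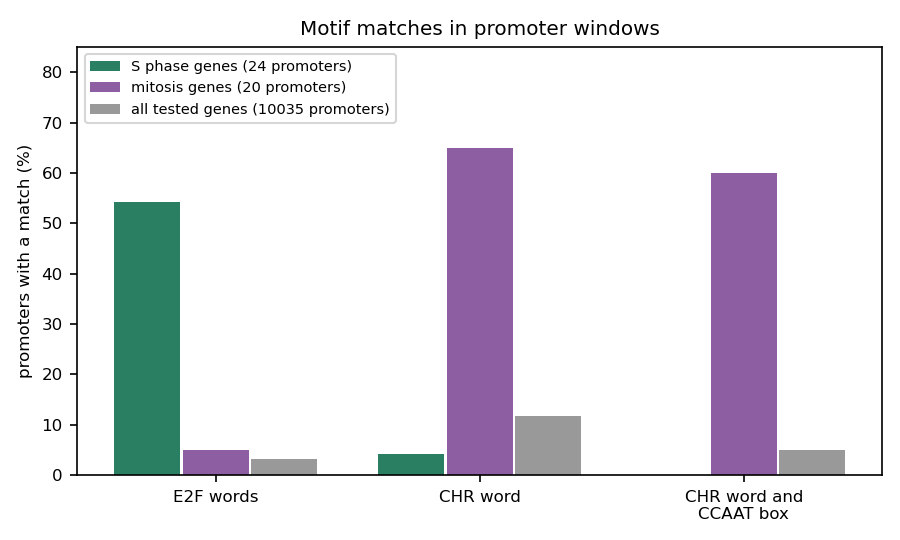
Share of promoter windows (%) with at least 1 match to the E2F words, to the CHR word, and to CHR together with a CCAAT box, for S phase genes, mitosis genes and all tested genes. The S phase bar is the tallest for the E2F words (54.2%) and the mitosis bar for CHR (65.0%).

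The windows of 4 genes are printed as examples of windows with matches. Other genes whose groups lie apart below are not printed. Of these, Mcm2 held E2F words and the CHR word, and Fen1 and Kif2c held no match of any kind. Capitals mark every match, and the strand in GRCr8 is plus for Mcm5, Cdk1 and Birc5 and minus for Mki67. The Mcm5 window holds E2F words and CCAAT boxes, those of Mki67 and Birc5 hold CHR and CCAAT, and that of Cdk1 holds all 3 kinds.
Mcm5: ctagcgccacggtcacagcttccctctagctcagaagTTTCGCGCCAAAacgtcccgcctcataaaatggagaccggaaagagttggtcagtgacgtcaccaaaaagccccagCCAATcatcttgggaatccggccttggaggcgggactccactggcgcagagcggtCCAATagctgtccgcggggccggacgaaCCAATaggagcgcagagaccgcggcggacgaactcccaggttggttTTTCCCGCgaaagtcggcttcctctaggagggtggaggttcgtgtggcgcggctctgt
Cdk1: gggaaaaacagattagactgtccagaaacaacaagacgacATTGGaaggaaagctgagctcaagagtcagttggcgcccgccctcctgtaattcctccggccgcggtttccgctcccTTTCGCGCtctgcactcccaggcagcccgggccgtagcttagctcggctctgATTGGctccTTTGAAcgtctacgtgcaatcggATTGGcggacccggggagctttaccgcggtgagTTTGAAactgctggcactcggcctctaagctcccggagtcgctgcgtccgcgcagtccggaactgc
Mki67: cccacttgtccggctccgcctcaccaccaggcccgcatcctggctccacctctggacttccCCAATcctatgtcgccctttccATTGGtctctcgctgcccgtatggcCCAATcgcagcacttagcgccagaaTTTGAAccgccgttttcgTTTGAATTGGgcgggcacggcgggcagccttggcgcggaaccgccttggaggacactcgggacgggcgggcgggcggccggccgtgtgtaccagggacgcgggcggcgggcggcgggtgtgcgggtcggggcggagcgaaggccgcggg
Birc5: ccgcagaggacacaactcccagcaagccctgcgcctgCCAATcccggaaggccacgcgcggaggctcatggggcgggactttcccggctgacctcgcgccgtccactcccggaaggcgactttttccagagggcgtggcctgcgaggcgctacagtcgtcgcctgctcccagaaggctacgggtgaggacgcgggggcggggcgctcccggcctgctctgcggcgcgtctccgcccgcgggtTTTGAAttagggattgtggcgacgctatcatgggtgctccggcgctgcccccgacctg

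The question for each gene was whether its level differed between the case and the control libraries. All 53 genes passed edgeR's filter on low counts, with 37 to 3608 counts per gene and library. None of the 53 was called by edgeR's quasi-likelihood test at a Benjamini-Hochberg adjusted p under 0.05 over the 16066 genes tested, where 0% of all genes were called, and their smallest adjusted p was 0.999. DESeq2, which called 0.155% of all genes, and limma-voom, which called 0%, also called 0 of the 53. Of the 53 genes 26 had a fitted log2 fold change below 0, or 49.1%, beside 53.7% of all tested genes, and the median was 0.03 beside -0.02. At an unadjusted p under 0.05 stood 3 genes, Mcm5, Fen1 and Birc5, or 5.66% beside 4.15% of all genes, all 3 higher in case (1.88% of all genes) and 0 lower (2.27% of all genes). The groups lay apart in 5 genes (9.43%, beside 8.47% of all genes), in each of them with case above (4.05% of all genes) and in 0 with case below (4.42%). These shares carry no test against those of all genes. Intervals of 95% around the log2 fold change held 0 for 50 of the 53 genes and reached 0.52 to either side at the median, from 0.30 for Pcna. These intervals are not adjusted for the number of genes, and genes whose fold change exceeded them, such as Mcm5, were still not called.

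**Figure D2:**
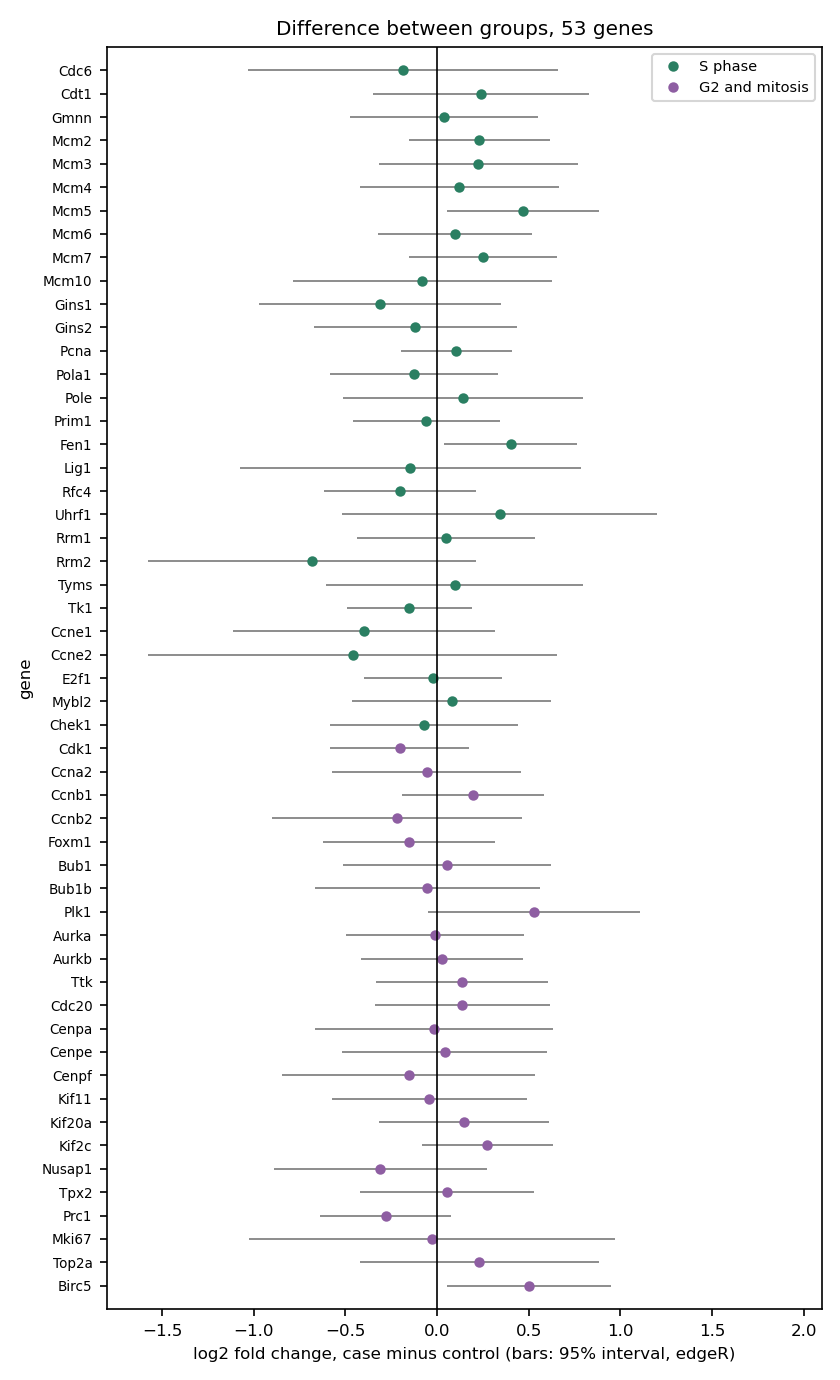
Fitted log2 fold change (case minus control) of each of the 53 genes, with 95% intervals from edgeR, coloured by phase. The points lie on both sides of 0, from -0.68 (Rrm2) to 0.53 (Plk1), and the intervals of Mcm5, Fen1 and Birc5 alone do not reach 0.

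The balance of directions turned on single libraries. Without control 5, 12 of the 53 genes were lower in case (49.7% of all genes), and without control 10, 35 were (48.5%), against 26 with all libraries. The median log2 fold change was 0.19 and -0.06 in these fits. The count was 29 without case 5 (52.7% of all genes), 19 without case 6 (52.4%), 26 without case 9 (52.9%) and 24 without control 6 (49.9%). With both libraries numbered 5 left out, an alternative chosen after earlier results were known, 19 were lower (48.8% of all genes) and the median was 0.11. At an unadjusted p under 0.05 in edgeR stood 5 genes without control 5 (7.32% of all genes). These were Mcm5, Cdt1, Mcm3 and Plk1, higher in case, and Rrm2, lower in case, so that Fen1 and Birc5 were not among them. There were 3 without control 6 (4.23%). There was 1 without case 5 (9.54%) and 1 without case 6 (2.23%), and there were 0 without case 9 (2.84%) and 0 without control 10 (2.41%). None was called at an adjusted p under 0.05 in these fits, where at most 0.0121% of all genes were. Over the 6 fits that each left out 1 library, 24 genes kept the sign of their fold change in every fit, 15 of them higher and 9 lower in case.

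Among the licensing genes, the helicase subunits Mcm2 to Mcm7 all had a fold change above 0. Mcm5 was at 105, 94.1 and 101 CPM in case 5, 6 and 9 and at 81.8, 79.6 and 55.6 CPM in control 5, 6 and 10. Every case library was above every control library, and control 10 was the lowest. Its log2 fold change was 0.47 (SE 0.18, 95% interval 0.05 to 0.88), with an edgeR unadjusted p of 0.0318 and an adjusted p of 0.999. Left out in turn, the libraries gave fold changes of 0.34 (without control 10) to 0.57, and the unadjusted p stayed under 0.05 in 2 of the 6 fits.

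Mcm2 was at 125, 126 and 121 CPM in case and at 120, 113 and 84.1 CPM in control, in the same order of libraries. Its groups did not overlap, but the lowest case library (1434 counts, 114 to 127 CPM by an exact 95% Poisson interval) and the highest control library (1368 counts, 114 to 126 CPM) lay within counting error of each other, and with library totals as the scaling they overlapped. Its log2 fold change was 0.23 (SE 0.16), 0.12 without control 10 and 0.33 without control 5. Mcm7 was at 144, 137 and 127 CPM in case and at 132, 119 and 90.4 CPM in control, so that case 9 was below control 5. For Mcm7 the fold change was 0.25 (SE 0.17), 0.15 without control 10 and 0.38 without control 5. The other subunits overlapped too, with fold changes of 0.10 (Mcm6), 0.12 (Mcm4) and 0.23 (Mcm3). Control 10 had the lowest level of 5 of the 6 subunits, all but Mcm4, which was lowest in case 6 (31.9 CPM, against 35.2 in control 10). Without control 10 the fold change of Mcm6 was -0.02, and without case 5 that of Mcm4 was -0.09, while the other 4 stayed above 0 in each fit.

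The loading factors and their inhibitor differed in how they varied. Cdt1 was at 45.1, 42.3 and 45.9 CPM in case and at 51.6, 36.4 and 24.95 CPM in control, so that the case libraries were close together within the range of control. Its fold change was 0.24 (SE 0.25), 0.05 without control 10 and 0.54 without control 5. Gmnn, which encodes geminin, ran from 7.44 CPM in control 5 to 9.91 in case 6, a coefficient of variation (SD over mean) of 10.3% where counting error alone gives 9.47%. The ratio of Cdt1 to Gmnn was 4.27 to 5.22 in case and 2.55 (control 10) to 6.93 (control 5) in control. Cdc6, the other loading factor, ran from 11.8 CPM in control 10 to 32.0 in control 5, and Mcm10, which joins when the helicase is activated, from 12.9 to 25.6 CPM in the same libraries. Gins1 and Gins2, subunits of the GINS complex of the active helicase, had fold changes of -0.31 (SE 0.28) and -0.12 (SE 0.24).

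Of the genes that copy DNA at the fork, Fen1, the nuclease that trims the flaps of Okazaki fragments, had the smallest p. It was at 47.3, 43.4 and 49.5 CPM in case and at 35.3, 40.5 and 30.4 CPM in control. All 3 case libraries were higher, with case 6 next to control 6 within their exact 95% Poisson intervals (40.2 to 46.9 and 37.0 to 44.1 CPM). Its log2 fold change was 0.40 (SE 0.16), with an edgeR unadjusted p of 0.0353 and an adjusted p of 0.999. In RefSeq the span of Fen1 overlaps that of Tmem258 on the opposite strand, and reads of the pair could have been shared, since the use of strand is not stated.

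Pcna, the sliding clamp of the polymerases, varied least in its role, at 109, 117 and 119 CPM in case and 110, 113 and 98.3 CPM in control. The groups overlapped and the fold change was 0.10 (95% interval -0.20 to 0.41). Lig1, the ligase that seals Okazaki fragments, and Uhrf1, which guides DNA methylation onto the new strand, varied about 3-fold between libraries (2.96 and 3.04 from lowest to highest), both lowest in control 10. The polymerase subunits Pola1 and Pole, the primase subunit Prim1 and the clamp loader subunit Rfc4 had fold changes between -0.20 (Rfc4) and 0.14 (Pole), with groups that overlapped.

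The 4 genes of nucleotide supply went separate ways. Rrm2, the regulatory subunit of ribonucleotide reductase, had the lowest fold change of all 53 genes, -0.68 (SE 0.38, 95% interval -1.58 to 0.21). It was at 8.39, 7.78 and 13.6 CPM in case and at 9.19, 23.4 and 15.2 CPM in control, where control 6 stood above all others and case 9 above control 5. Without control 6 the fold change was -0.27, and without case 9 it was -0.98. Its partner Rrm1 was at 106, 74.7 and 94.3 CPM in case and 105, 93.2 and 67.8 CPM in control, high in both libraries numbered 5, where Rrm2 was low. Both are uncertain, since RefSeq places the span of Cys1 over that of Rrm2, and the table lists a pseudogene of Rrm1. Tk1, the thymidine kinase of S phase, was at 98.7, 96.0 and 108 CPM in case and at 122, 118 and 95.8 CPM in control, a fold change of -0.15 (SE 0.15). Tyms, the thymidylate synthase, was at 0.10 (SE 0.30).

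Of the regulators at the G1 to S boundary, 4 of 5 had a fold change below 0 (80%, beside 53.7% of all tested genes). Among these 4 was E2f1 at -0.02, which changed sign with library totals as the scaling. The cyclin gene Ccne1 was at 22.2, 14.7 and 20.8 CPM in case and at 35.8, 23.8 and 16.5 CPM in control, with control 5 the highest and case 6 the lowest. Its fold change was -0.40 (SE 0.31), -0.07 without control 5 and -0.60 without control 10. Ccne2, the other cyclin E gene, varied most of all 53 genes, 4.21-fold from 3.33 CPM in case 6 to 14.01 in control 5. E2f1, the transcription factor of this step, varied least, from 16.2 to 18.2 CPM, a coefficient of variation of 4.17% where counting error alone gives 6.93%. Mybl2 was at 52.7, 48.6 and 47.2 CPM in case and at 61.3, 46.9 and 32.2 CPM in control, so that the case libraries lay inside the control range. The fold change of Mybl2 was 0.08 (SE 0.23), 0.32 without control 5 and -0.09 without control 10. Chek1, the kinase that responds to stalled forks, had a fold change of -0.07 (SE 0.22).

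The kinase that drives mitosis and its cyclins did not separate the groups. Cdk1 was at 58.4, 60.0 and 74.2 CPM in case and at 83.6, 72.6 and 65.8 CPM in control, where case 9 lay above control 6 and control 10. Its fold change was -0.20 (SE 0.16, 95% interval -0.58 to 0.17), -0.32 without case 9 and -0.11 without control 5. Ccnb1 stood at 0.20 (SE 0.17), Ccna2 at -0.06 (SE 0.22) and the factor Foxm1 at -0.15 (SE 0.20). Ccnb2 rested on 306 counts over all libraries and its spread (16.5%) was near counting error (14.1%).

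Plk1, a kinase of centrosome maturation and spindle assembly, had the highest fold change of the 53 genes, 0.53 (SE 0.25, 95% interval -0.05 to 1.11), with an edgeR unadjusted p of 0.0672 and an adjusted p of 0.999. It was at 55.2, 51.5 and 72.3 CPM in case and at 53.7, 41.0 and 29.2 CPM in control. Case 9 was the highest and control 10 the lowest, and case 6 lay below control 5. It was 0.37 without case 9 and 0.37 without control 10, and 0.77 without control 5. With both libraries numbered 5 left out it was 0.85, with an adjusted p of 0.247 in edgeR. RefSeq places Ern2 over the span of Plk1 on the opposite strand.

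Among the other mitotic kinases, Aurkb, of the chromosomal passenger complex, was at 55.3, 54.0 and 73.0 CPM in case and 62.8, 67.4 and 48.7 CPM in control, a fold change of 0.03 (SE 0.19). Aurka, the centrosomal kinase, and the checkpoint kinases Bub1, Bub1b and Ttk had fold changes between -0.05 (Bub1b) and 0.14 (Ttk), and Cdc20, which activates the anaphase-promoting complex, 0.14 (SE 0.20). The sign of Aurka flipped with another scaling, as did those of Cenpa and E2f1, the other two whose fold changes lay next to 0.

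Birc5, which encodes survivin, a subunit of the passenger complex that Aurkb belongs to, was at 21.9, 17.1 and 20.8 CPM in case and at 12.2, 15.8 and 14.2 CPM in control. All case libraries were higher, with case 6 and control 6 within counting error of each other (15.1 to 19.3 and 13.7 to 18.2 CPM). Its fold change was 0.50 (SE 0.19), with an edgeR unadjusted p of 0.0331 and an adjusted p of 0.999, and it ran from 0.41 to 0.62 with each library left out in turn. Birc5 and Gmnn were the 2 genes of the 53 that were lowest in control 5.

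Of the 9 genes of the spindle and the centromere, 1 had separate groups (11.1%, beside 8.47% of all tested genes). Kif2c, a kinesin that takes microtubules apart at centromeres, was at 30.7, 28.9 and 35.1 CPM in case and at 25.3, 28.4 and 24.6 CPM in control. Case 6 and control 6 differed by less than counting error (26.3 to 31.8 and 25.6 to 31.5 CPM), and the fold change was 0.27 (SE 0.15). Prc1, which bundles the microtubules of the central spindle, was at 47.6, 41.8 and 48.1 CPM in case and at 59.3, 60.2 and 47.3 CPM in control, where control 10 lay below case 5 and case 9. Its fold change was -0.28 (SE 0.15). Tpx2, which nucleates spindle microtubules, was at 69.5, 52.6 and 65.7 CPM in case and 76.1, 56.0 and 49.0 CPM in control. Nusap1 (-0.31, SE 0.25) had the lowest fold change in this role, and the kinesins Kif11 (-0.04) and Kif20a (0.15) and the centromere genes Cenpa (-0.02), Cenpe (0.04) and Cenpf (-0.16) lay between.

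**Figure D3:**
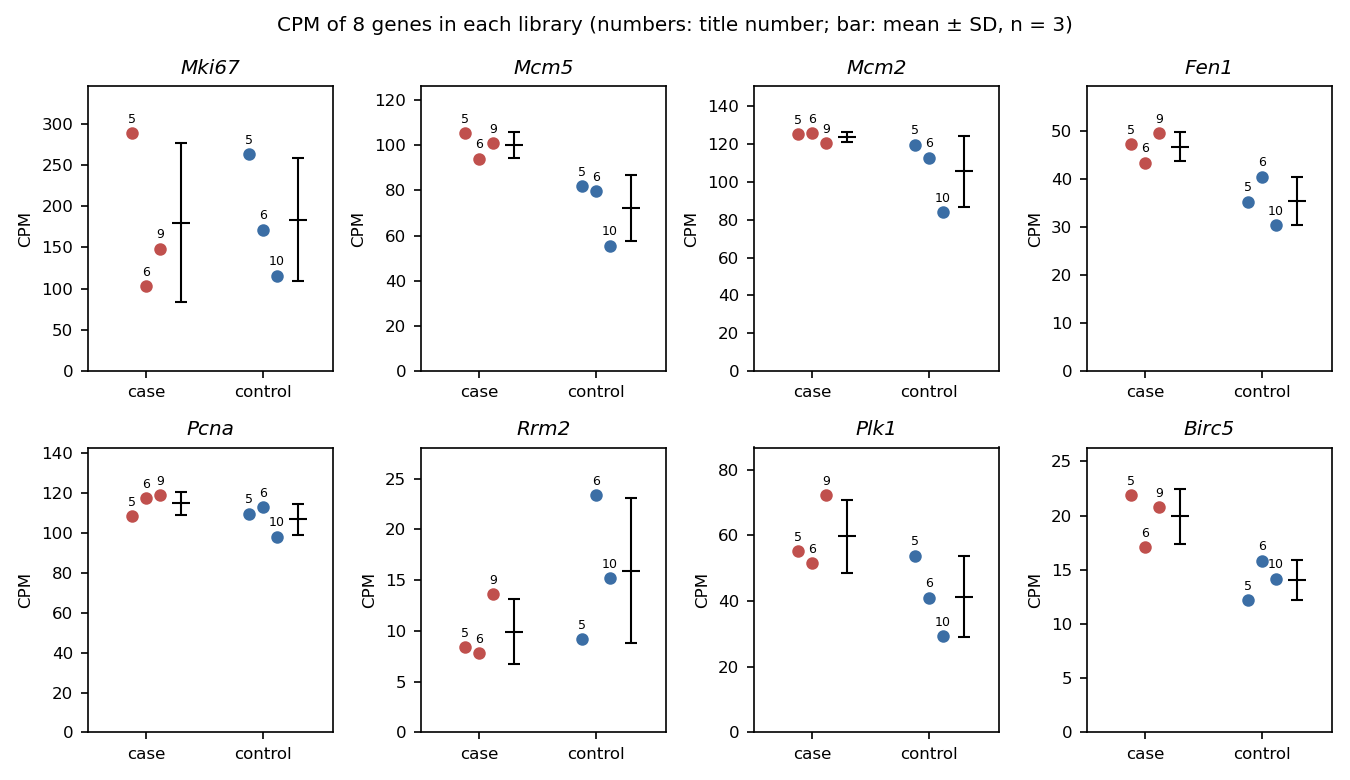
CPM of 8 genes in each library, with title numbers beside the points and the mean ± SD of each group (n = 3). Mki67 is high in both libraries numbered 5, control 10 is the lowest for Mcm5, Mcm2, Fen1, Pcna and Plk1, and the groups lie apart for Mcm5, Mcm2, Fen1 and Birc5.

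The most used marker of dividing cells varied within groups. Mki67, which encodes the Ki-67 coat protein of mitotic chromosomes, was at 288, 103 and 148 CPM in case 5, 6 and 9 and at 263, 171 and 116 CPM in control 5, 6 and 10. Both libraries numbered 5 were high, and the other libraries of each group followed without a gap between groups. The group means were 180 ± 96.6 and 183 ± 74.6 CPM (SD, n = 3 each), a fold change of -0.03 (95% interval -1.03 to 0.97). Its coefficient of variation over the 6 libraries was 42.5%, where counting error gives 2.13%. Without case 5 the fold change was -0.52 and without control 5 it was 0.33. Top2a, the topoisomerase that untangles sister chromosomes, was at 148, 77.7 and 116 CPM in case and at 124, 93.7 and 73.5 CPM in control, a fold change of 0.23 (SE 0.28), which was 0.02 without case 5 and 0.45 without control 5.

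Levels thus differed between libraries, and the groups overlapped in all but 5 of the 53 genes. The highest over the lowest level was 1.64 at the median of the 53 genes, beside 1.77 over all tested genes. Control 10 held the lowest level of 29 of the 53 genes (54.7%, beside 15.5% of all tested genes) and the highest of 0, and case 6 held the lowest of 16 (30.2%, beside 15.9%). Control 5 held the highest of 21 (39.6%, beside 21.3%) and case 5 of 14 (26.4%, beside 19.7%). The 53 genes together made up 0.272%, 0.223% and 0.255% of the counts of case 5, 6 and 9 and 0.293%, 0.222% and 0.178% of those of control 5, 6 and 10. Since genes of 1 library share its RNA and scaling, these counts describe the libraries and carry no test.

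Control 10 was low in both phases and case 6 in the genes of mitosis. In control 10 the median deviation from each gene's mean was -0.39 (log2) for the 29 S phase genes and -0.26 for the 24 genes of G2 and mitosis. In case 6 it was -0.03 for S phase and -0.25 for mitosis. The summed CPM of the S phase genes over that of the mitosis genes was 1.46 in case 6 and 1.11 to 1.2 in the other libraries. Without Mki67 it was 1.66 in case 6 and 1.32 to 1.43 in the others. In control 5 both phases were high, at 0.24 and 0.26, and the median over all tested genes stayed between -0.01 and 0.03 in the 6 libraries.

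**Figure D4:**
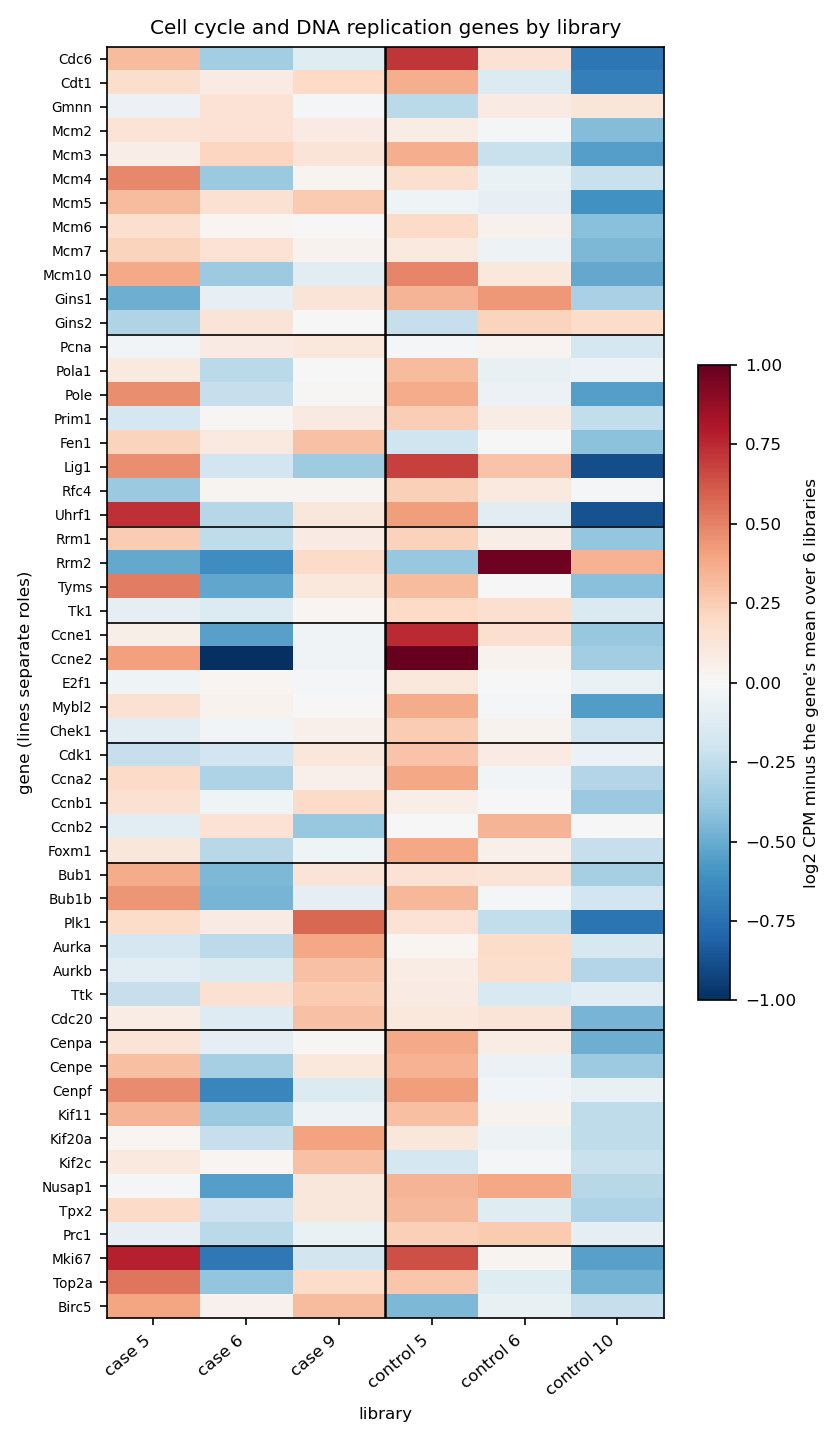
Log2 CPM of each of the 53 genes in each library, minus the gene's mean over the 6 libraries, with horizontal lines between roles and a vertical line between case and control. Colours saturate at -1 and 1. Most rows are blue in control 10 and red in control 5, and most of the mitosis rows below are blue in case 6.

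Most of the 53 genes varied together over the libraries. The median Pearson r between pairs of these genes in log2 CPM was 0.484 over 1378 pairs, beside -0.001 over pairs of all tested genes. It was 0.501 within S phase, 0.522 within mitosis and 0.465 between the phases, and 0.842 among Mcm2 to Mcm7. After each group's mean was subtracted, the median over the 1378 pairs was 0.623. That step was not run for all tested genes and leaves fewer free values per gene, so 0.623 cannot be read as a rise from 0.484. These values rest on 6 libraries that differ in composition, and are given as a description. With Mki67, Kif11 (0.996), Bub1b (0.983), Mcm10 (0.961) and Tyms (0.957) had the highest r, and 13 genes were above 0.9. Gins2 (-0.846) and Gmnn (-0.815) were the most negative of 7 genes below 0, with 698 and 676 counts over all libraries. Ccne2 and Cenpa had fewer counts (558 and 582) and an r of 0.904 and 0.775. Their coefficients of variation were 47.8% and 18.9%, where counting error gives 10.4% and 10.2%. RefSeq places Gse1 over the span of Gins2 and Ide over that of Kif11, both on the opposite strand. The coefficient of variation of Gins2 was 14.8% where counting error gives 9.32%, and that of Gmnn 10.3% where it gives 9.47%. The part of counting error in their negative r was not tested.

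**Figure D5:**
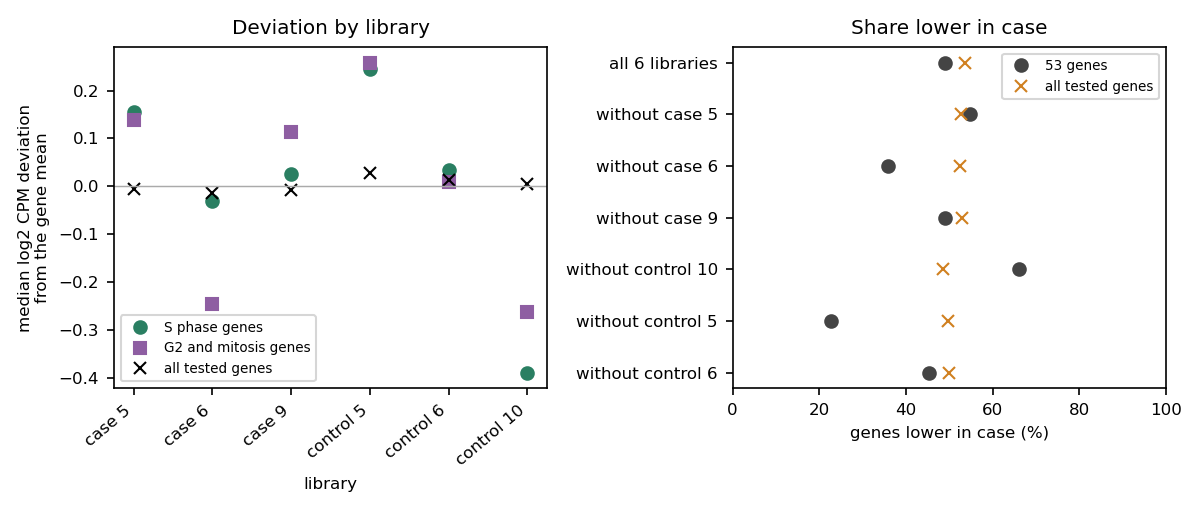
Left, median log2 CPM deviation of S phase genes, mitosis genes and all tested genes in each library. Right, percent of the 53 genes and of all tested genes lower in case with all libraries and with each left out. Control 10 is lowest for S phase (-0.39), and the share lower in case runs from 22.6% to 66.0% for the 53 genes.

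Markers of cell types that can hold dividing precursors also differed between libraries. A B cell precursor list of 12 genes, of which Vpreb3 was at 0 in all libraries, summed to 343, 165 and 170 CPM in case 5, 6 and 9 and to 254, 202 and 99.0 CPM in control 5, 6 and 10. It was thus lowest in control 10 and highest in the libraries numbered 5, as the 53 genes were (2739, 2138 and 2520 CPM in case and 2791, 2400 and 1843 in control). The order was not the same throughout, with control 6 above case 9 in this list and below it in the 53 genes. Single genes of the list also differed, as Ebf1 was lowest in case 6 (37.9 CPM, against 43.8 in control 10). An erythroid list of 11 genes summed to 7986, 815 and 2681 CPM in case and 8644, 8439 and 4792 in control, lowest in case 6, and a neutrophil and myeloid precursor list of 12 genes to 9976, 17970 and 23000 CPM in case and 7927, 21570 and 17320 in control, lowest in the libraries numbered 5. Single abundant genes carried much of the erythroid and neutrophil sums. Hbb was at 6345 CPM in case 5 and 511.5 in case 6, and S100a9 at 3504 and 6804 in these libraries. The sums are therefore not a measure of precursors alone. The part of these cells in the levels of the 53 genes was not tested.

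Other genes of the pathway, from lists not used to choose the 53, were called in 0 cases by edgeR at an adjusted p under 0.05. Of 30 tested genes that govern G1 or belong to the Rb and E2F families, 15 were lower in case (50%, beside 53.7% of all genes), and 1 had an unadjusted p under 0.05 (3.33%, beside 4.15%). That gene was Ccnd1, cyclin D1, which links growth signals to the cell cycle, at 50.1, 47.0 and 46.0 CPM in case and 67.9, 77.7 and 65.2 CPM in control. All case libraries were lower, with a fold change of -0.56 (SE 0.14), an edgeR unadjusted p of 0.00385 and an adjusted p of 0.999. Ccnd1 was the 1 gene of this list with separate groups (3.33%, beside 8.47% of all tested genes). The inhibitor genes Cdkn1a (43.7 ± 10.2 against 54.5 ± 3.17 CPM) and Cdkn1b (56.7 ± 7.0 against 56.8 ± 12.6 CPM), the growth factor response gene Myc (72.1 ± 15.7 against 69.9 ± 15.4 CPM) and the retinoblastoma gene Rb1 (44.6 ± 13.7 against 44.4 ± 16.1 CPM) overlapped between groups (SD, n = 3 each).

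Of 43 other tested replication factors 20 were lower in case (46.5%), with a median of 0.04, and of 68 other mitosis genes 35 (51.5%), with a median of -0.01, beside 53.7% and -0.02 over all genes. No gene of either list had an unadjusted p under 0.05 in edgeR. The smallest p in the first list belonged to Brca2, of recombination repair (13.2 ± 0.394 against 10.1 ± 0.770 CPM), the delta polymerase subunits Pold1 (54.6 ± 7.35 against 38.3 ± 11.98 CPM) and Pold2 (28.2 ± 4.43 against 21.4 ± 3.04 CPM), and the maintenance methyltransferase Dnmt1 (131.7 ± 9.62 against 103.8 ± 18.6 CPM), all higher in case (SD, n = 3 each). The groups of Brca2 and Dnmt1 lay apart with case above, as did those of Orc4, an origin recognition subunit named after its values were seen, with case below (6.98% of this list, beside 8.47% of all genes). In the mitosis list Spc24, a kinetochore gene, had the smallest p, with a fold change of 0.45 (SE 0.25) and groups that overlapped. Ncapd3, of the condensin complexes, was the 1 gene of this list with separate groups (1.47%), with means of 33.2 ± 1.69 (case) and 26.5 ± 6.20 CPM (control; SD, n = 3).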

How the data were processed

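Per the labels' protocols, TRIzol was used to extract total RNA, and single-end libraries were built from an Ion Total RNA-Seq kit. The authors deposited raw counts by gene symbol, and column names matched the titles of the 6 libraries. Aligner, counting program, genome build and strand use were not given in the sources used here, so reads of near-identical copies and of overlapping genes could have been shared. In RefSeq (GRCr8) the spans of 12 of the 53 genes overlap a protein-coding gene.

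Genes were filtered with filterByExpr (16066 left), scaled by TMM and compared by edgeR 4.0.16 (R 4.3.3) with its quasi-likelihood test on group alone, adjusted by Benjamini-Hochberg over all tested genes at 0.05. In the same run the script was also tested on simulated counts, with levels and spread taken from the fit to these data. The common biological coefficient of variation was 0.322. Log2 CPM used a prior count of 2. CPM are not scaled to gene length, so levels are compared within a gene only. Poisson intervals cover counting error only. Alternatives were DESeq2 1.42.0, limma-voom 3.58.1, other scalings and filters, and leaving out libraries.

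The 53 genes, the other lists and the tests were chosen with earlier results of these data known. Values in every library are given for Mki67, Top2a, Pcna, Cdk1 and Mcm2, for the gene with the highest mean and with the smallest p in each role, for genes whose groups did not overlap and for the extreme fold changes; Cdt1 and Rrm1 were added after their values were seen. Of each pathway list at most 4 genes with the smallest p are named, and 5 G1 genes always. Markers of T and NK cells summed to 301 to 496 CPM, of endothelium to 495 to 698 and of skeletal muscle to 9.28 to 1275. Those of skeletal muscle were lowest in the libraries numbered 5 (121 CPM in case 5 and 9.28 in control 5). Older symbols matched 4 list genes.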

Additional observations from a re-analysis of the deposited data

How the results depend on the processing

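Of the 53 genes 0 were called in every fit run, at thresholds of 0.05 and, in the main scaling, 0.1. Over all genes 0 were called except by DESeq2 (26 genes) and without control 5 (2 genes; the range with 1 library left out was 0 to 2); the cause was not tested. The number of the 53 genes lower in case ran from 12 (without control 5) to 35 (without control 10) with 1 library left out, and from 23 to 26 with other scalings, filters and tests; the median log2 fold change ran from -0.06 to 0.19 and from 0.02 to 0.08. The median over all genes moved from -0.02 to at most 0.02 with another scaling.

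With the title number as a replicate block, which compares the libraries numbered 5 and 6 only, 39 of the 53 were lower in case (53% of all genes) and the median was -0.16, with 0 called. The labels do not say that a shared number marks a shared source. The correlation of deviations from the group means across genes was 0.38 for the libraries numbered 5 and 0.136 for those numbered 6. Between libraries of unlike number it ran from -0.338 (case 5 with control 6) to 0.283 (case 9 with control 6). Over the 53 genes alone it was 0.615 for the libraries numbered 5 and 0.238 for those numbered 6. Between unlike numbers it then ran from -0.538 (case 5 with control 10) to 0.408 (case 6 with control 10). In both sets of genes, each library numbered 5 had a negative value with every library of another number.

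With both libraries numbered 5 left out, or number 5 as a covariate, both chosen after earlier results were known, 19 and 25 of the 53 were lower in case, with 0 called. Where a gene had few counts, as Ccnb2 did, counting error limits what can be seen.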
